A study of Oryza sativa with 12 samples.

Results

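The changes with age in rice embryos of the *Oslec1* mutant were described by comparing *Oslec1* embryos at 25 days after pollination (DAP), called late-stage embryos (LE), with *Oslec1* embryos at 7 DAP, called early-stage embryos (EE). These are 6 of the 12 libraries of the series, 3 replicates per stage, chosen by genotype alone. The mutant is the homozygous *Oslec1-1* line made by CRISPR/Cas9 with a pair of guide RNAs against the coding region, in the Nipponbare background, and the sequenced embryos therefore come from 1 edited line. The edit lies behind the DNA-binding domain, so a shortened OsLEC1 protein with part of its function may remain. The remaining 6 libraries are unedited Nipponbare embryos (NIP), 3 LE and 3 EE, and are used for the same stage comparison beside the mutant. All plants grew in a greenhouse under long days and received no treatment. Polyadenylated RNA came from whole embryos that were pooled, so that fewer cells of a type and less RNA per cell cannot be told apart. The library codes of the LE samples differ from those of the EE samples in both genotypes, and a change with age cannot be told apart from a change of sequencing run.

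LEC1 is the seed-specific B subunit of the NF-Y transcription factor. In Arabidopsis, it keeps the embryo in the embryonic program and turns on storage compound synthesis and desiccation tolerance during maturation. A cereal embryo first lays down the shoot, the root and the scutellum, and then fills with reserves and dries, while most of the grain's storage protein is made in the neighbouring endosperm. The expression of *OsLEC1* itself, and that of other regulators known by symbol, was not analysed here. The embryo identity of the samples could not be checked against markers known by name either, since the gene identifiers of the count table are paired with a name only for non-coding RNAs. Functions are therefore given as Gene Ontology (GO) terms, as far as the study assigned them to an identifier.

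Library totals were 27213238, 22774271 and 22732266 counts in *Oslec1* LE embryos and 20462664, 17921460 and 18898912 counts in *Oslec1* EE embryos. The NIP libraries held 17836409 to 25492787 counts at LE and 16113922 to 19549536 counts at EE. A count was seen on 30983 genes in *Oslec1* LE embryos and on 30495 genes in *Oslec1* EE embryos, with 1575 genes found at LE only and 1087 at EE only. The 50 most abundant genes took 16.3% ± 1.17 of the counts in *Oslec1* LE embryos and 19.1% ± 0.463 in *Oslec1* EE embryos, against 22.9% ± 1.297 in NIP LE embryos and 41.7% ± 1.51 in NIP EE embryos (SD, n = 3 each). Within a group, single libraries stood apart for few genes. A level more than 4 times that of both other replicates, and of at least 1 CPM (counts scaled to a common library size with TMM factors over the 12 libraries), was found on 21 genes in the third LE replicate of *Oslec1*, on 6 in the first and on 1 in the second. The same was found on 23 genes in the third EE replicate, on 5 in the first and on 1 in the second. The third LE replicate stands apart in this way in 13 of the genes found higher at LE below, the first LE replicate in 5 found lower, the third EE replicate in 8 found higher and 2 found lower, and the first EE replicate in 1 found higher.

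The mutant embryo changed many of the tested genes by at least 4-fold between the stages. Of 24491 genes tested, 1519 were higher at LE (6.2% of the genes tested) and 1209 were lower at LE (4.94%), at an edgeR adjusted *p* under 0.05 and a change of at least 4-fold, which is a log2 fold change of 2. At the adjusted *p* alone, 7345 genes were higher (29.99%) and 7130 lower (29.1%). The median log2 fold change over all genes was 0.00, with quartiles at -0.52 and 0.57, so most differences between the stages were small. The study calls the replicates biological without stating how the pooled embryos were divided among plants, and the *p*-values measure the spread between these libraries. In the text, a gene is called higher or lower where it passed both limits.

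Among the genes that carry a GO term, the 5 with the largest fitted rise carry terms for chitinase, enzyme inhibition, defense or cell wall macromolecules, and the 5 with the largest fitted fall terms for storage, transport or transcription. These terms were listed by the study for genes that were higher in *Oslec1* than in NIP at EE, so the annotated genes were picked partly on the *Oslec1* EE and NIP EE libraries, and how many of them fall or rise with age is not independent evidence. The copies of the lists used here hold at most 30 genes per term, so a list of 30 may hold only part of the study's genes for that term. Os05g0247800 (chromosome 5, 8959416 to 8960566, plus strand), with the terms for chitinase and enzyme inhibitor activity, had 202, 104 and 115 CPM in *Oslec1* LE embryos, against 0.918, 3.20 and 2.47 CPM in *Oslec1* EE embryos. The groups did not overlap, and the level was 63.9-fold higher at LE, with a log2 fold change of 6.01 ± 0.42 (SE, edgeR adjusted *p* = 9.36e-06). Os11g0592200, under the term for defense response to other organisms, had 37.9, 39.2 and 102 CPM in *Oslec1* LE embryos, against 2.92, 3.91 and 2.65 CPM in *Oslec1* EE embryos. All LE libraries were again above all EE libraries, and the log2 fold change was 4.24 ± 0.44 (SE, edgeR adjusted *p* = 7.42e-05), or 3.605 without the third LE replicate. Os12g0555000 (enzyme inhibitor activity) had 13.1, 29.6 and 93.3 CPM in *Oslec1* LE embryos, against 2.50, 3.15 and 2.70 CPM in *Oslec1* EE embryos. All LE libraries were above all EE libraries but spread widely among themselves, and the gene was higher at LE with 4.02 ± 0.70 (SE, edgeR adjusted *p* = 0.00129) on the log2 scale, or 2.93 without the third LE replicate. Os10g0542900 (chitinase activity) and Os04g0604300 (cell wall macromolecule metabolism) completed the risers, with log2 fold changes of 3.65 (4.54 without the third EE replicate) and 3.49.

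By counts, the largest falls ended near the limit of detection. Os02g0249900 (chromosome 2, 8465066 to 8467035, plus strand), annotated with nutrient reservoir activity, had 0.223, 0 and 0 CPM in *Oslec1* LE embryos, against 40.1, 109 and 175 CPM in *Oslec1* EE embryos. The EE replicates spread over more than 4-fold but all lay above the LE libraries, and the log2 fold change was -10.27 ± 0.87 (SE, edgeR adjusted *p* = 2.54e-05). The size of this fall is uncertain. It was -14.32 without the first LE replicate, the only one with a count, and -9.74 without the third EE replicate. By the deposited FPKM, the gene was not near the limit, with 34.2, 2.408 and 13.35 FPKM in *Oslec1* LE embryos, against 2427, 2067.5 and 2218.4 FPKM in *Oslec1* EE embryos, and limma on log2(FPKM + 0.1) gave -7.73. A pair of genes with DNA-binding transcription factor activity was close to switched off: Os01g0580400 had 0.0637, 0.0384 and 0.0381 CPM in *Oslec1* LE embryos, against 34.4, 27.9 and 28.5 CPM in *Oslec1* EE embryos, and Os05g0304800 had 0.0637, 0.0767 and 0.0381 CPM in *Oslec1* LE embryos, against 29.6, 29.7 and 36.0 CPM in *Oslec1* EE embryos. Set against 3 counts per library, they were at least 279.8-fold and at least 293-fold lower at LE, with edgeR adjusted *p* = 1.79e-07 for the first and 1.79e-07 for the second. Os06g0324300, a transmembrane transporter gene, had 0.127, 0 and 0.0761 CPM in *Oslec1* LE embryos, against 52.9, 31.5 and 45.4 CPM in *Oslec1* EE embryos, a log2 fold change of -9.16 (-9.97 without the first LE replicate). It lies inside Os06g0324150, which is annotated on the opposite strand with oligopeptide transport and fell by 9.12 on the log2 scale. Whether the counting used strand is not given in the sources used here, and reads of this overlapping pair cannot be told apart. In NIP embryos, all 5 of these genes were lower at LE too, the 4 with counts at NIP LE by log2 fold changes between -6.81 and -5.70.

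**Figure D1:**
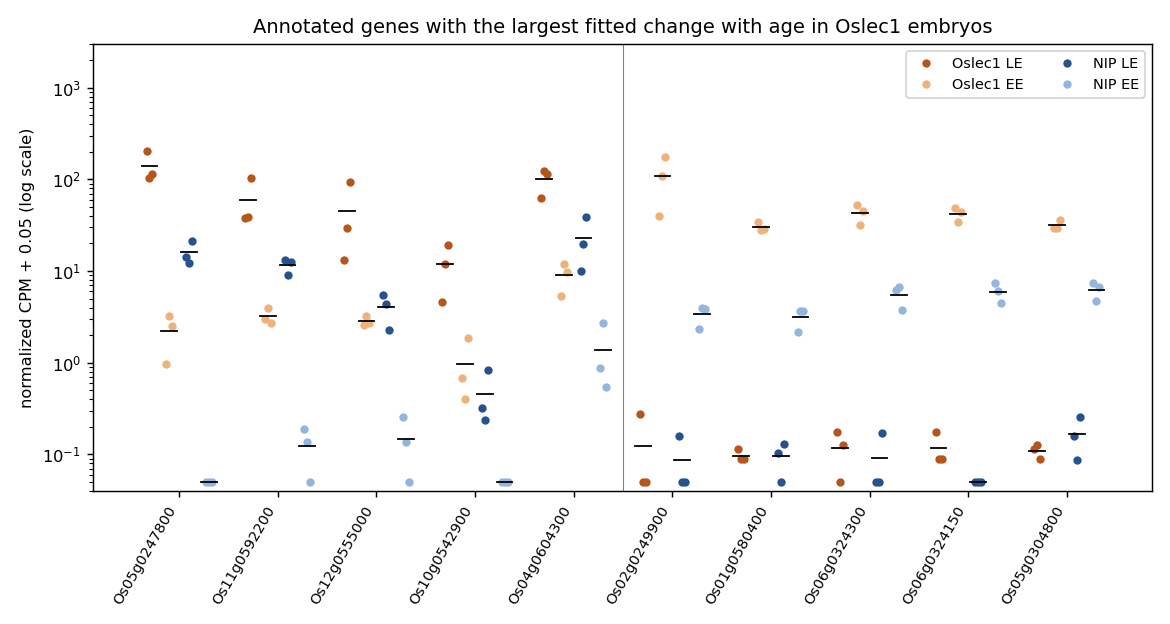
Normalized CPM (log scale, 0.05 added so that a level of 0 can be drawn) of the 10 GO-annotated genes with the largest fitted change with age in *Oslec1* embryos, 5 higher at LE on the left and 5 lower on the right, in all 4 groups. Points are the 3 libraries of a group and bars their mean. In each gene, the 3 *Oslec1* LE libraries lie on 1 side of the 3 *Oslec1* EE libraries, and for Os05g0247800 they lie between 104 and 202 CPM.

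Of the genes without a GO term, which the files do not pair with a name, Os03g0804700 and Os02g0677300 had the highest fitted rise among those with enough counts, an order that depends on the count added to levels of 0. Os03g0804700 had 31.4, 12.04 and 17.01 CPM in *Oslec1* LE embryos, against 0, 0 and 0 CPM in *Oslec1* EE embryos. No EE library held a count of it, so it was at least 146-fold higher at LE. Os02g0677300 had 55.0, 125 and 134 CPM in *Oslec1* LE embryos, against 0, 0 and 0.0899 CPM in *Oslec1* EE embryos, at least 760.2-fold higher. In the other direction, Os03g0766200 had 0, 0 and 0 CPM in *Oslec1* LE embryos, against 36.9, 26.1 and 33.1 CPM in *Oslec1* EE embryos, and Os05g0574900 had 0, 0 and 0 CPM in *Oslec1* LE embryos, against 17.2, 14.6 and 16.1 CPM in *Oslec1* EE embryos. They were at least 296-fold and at least 147-fold lower at LE. Such on and off changes were rare. In all, 30 genes had no more than 3 counts in any *Oslec1* EE library and a mean of at least 100 normalized counts at LE, and 22 genes showed the reverse. Of the 30, 21 could be tested in NIP, where 18 were higher at LE as well and 0 were lower. Of the 22, 11 could be tested in NIP, and all 11 were lower at LE there too. No NIP LE library held more than 5 counts of these 11. They passed the count filter through NIP EE, so the test could hardly give another direction. The same holds, with the stages exchanged, for most of the 21. Without that filter, 15 of the 30 had a mean of at least 100 normalized counts at NIP LE and 3 at NIP EE. Of the 22, 0 had such a mean at NIP LE and 4 at NIP EE.

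The same stage comparison in NIP gave 1567 genes higher at LE (7.08% of 22129 tested) and 1351 lower (6.11%). The mutant and NIP comparisons share no library, but they share the stages and the change of sequencing run. Across the 21822 genes tested in both, Pearson's r of the log2 fold changes was 0.68 and Spearman's rho 0.60, as a description across genes, which are not independent replicates. Of the 1506 genes higher at LE in NIP and tested in both, 639 were called higher in *Oslec1* too (42.4%), and a further 497 (33.0%) were higher with a change under 4-fold. Another 284 (18.9%) did not pass the test, 71 (4.71%) were lower by less than 4-fold and 15 were called lower. Of the 1286 genes lower at LE in NIP, 527 were called lower in *Oslec1* (41.0%), 449 (34.9%) were lower by less than 4-fold, 234 (18.2%) did not pass the test, 63 (4.90%) were higher by less than 4-fold and 13 were called higher. These shares depend on the scaling. With library totals they were 33.33% for the genes higher and 54.33% for those lower in NIP, and with limma on log2(FPKM + 0.1) they were 35.13% and 52.54%. Seen from the mutant, the shared genes were 57.9% of the 1104 genes higher at LE in *Oslec1* and tested in both, and 66.8% of the 789 lower ones. A further 415 genes higher and 420 lower in *Oslec1* were too low in NIP embryos to be tested there.

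**Figure D2:**
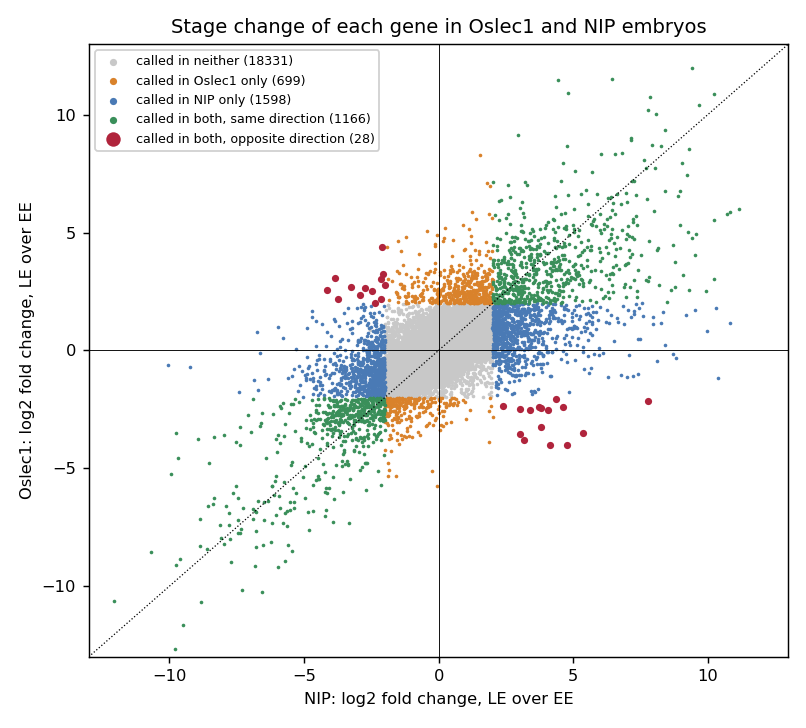
Log2 fold change of LE over EE in *Oslec1* embryos (vertical axis) against that in NIP embryos (horizontal axis) for each of the 21822 genes tested in both, coloured by where the gene was called. The dotted line marks equal change, 1166 genes were called in both in the same direction, 699 in *Oslec1* only, 1598 in NIP only and 28 in both in opposite directions.

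Over the genes called in NIP, the median stage change was smaller in the mutant. Over the genes higher at LE in NIP, the median log2 fold change was 1.69 in *Oslec1* and 3.13 in NIP, and over those lower at LE in NIP it was -1.64 in *Oslec1* and -2.80 in NIP. These genes were chosen on the NIP contrast, which makes the NIP medians large by construction. The levels behind them differed mainly at EE for the risers, whose median CPM was 9.89 in *Oslec1* LE and 2.70 in *Oslec1* EE embryos, against 5.40 in NIP LE and 0.515 in NIP EE embryos. For the fallers, the median CPM was 2.84 in *Oslec1* LE and 11.5 in *Oslec1* EE embryos, against 1.48 in NIP LE and 12.8 in NIP EE embryos. The genes chosen on the *Oslec1* contrast had medians of 2.90 in *Oslec1* and 2.44 in NIP for the risers, and -2.72 in *Oslec1* and -2.70 in NIP for the fallers. These medians cover only the 1104 risers and 789 fallers tested in both genotypes. They leave out the 415 risers and 420 fallers that were too low in NIP embryos to be tested there.

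The difference of the stage change between the genotypes was tested itself, on all 12 libraries. With 24903 genes tested, 973 had a higher log2 fold change in *Oslec1* than in NIP (3.91%) and 1011 a lower one (4.06%), again with an edgeR adjusted *p* under 0.05 and a difference of at least 2 on the log2 scale. This split depends on the scaling. With library totals in place of TMM factors, the median over all genes moved by -0.55 on the log2 scale and the counts became 560 higher and 1808 lower (23.65% of the calls higher, against 49.04%). Limma on log2(FPKM + 0.1), a measure of fragments scaled by gene length and library, moved the median by -0.55 as well and gave 654 and 1691 (27.89%). In NIP alone, library totals moved the median by 0.57 and gave 2380 genes higher and 818 lower, so 74.42% of the calls were higher in place of 53.7%. In the *Oslec1* comparison, the same scalings moved the median by 0.01 to 0.02 and the split stayed at 56.31% and 57.41%, against 55.68%. The group that stood apart in composition was NIP EE, where the 5 genes with the highest FPKM took 22.47%, 25.82% and 24.62% of all counts. The same 5 genes took 1.109%, 1.032% and 0.6856% in *Oslec1* LE, 0.3951%, 0.6361% and 0.4118% in *Oslec1* EE, and 0.8828%, 1.029% and 0.845% in NIP LE embryos.

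By FPKM, which sets genes of different length side by side, the 5 most abundant genes at LE and the 5 at EE in *Oslec1* were 9 genes, and Os01g0762500, a storage gene described below, was the only one with a GO term. The log2 fold changes of the other 8 lay between -1.38 and 2.104, 1 of them was called higher at LE and 0 lower. That gene was under the limit without the first EE replicate (1.96) or the first LE replicate (1.98). With that 1 exception, these 8 genes moved by less than 4-fold between the stages. Other abundant genes are not covered by this choice. Os08g0473600, for instance, with a mean of 1593.9 FPKM in *Oslec1* LE and 189.3 FPKM in *Oslec1* EE embryos, was called higher at LE.

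Of the 18 GO lists, storage proteins had the lowest median change. The GO term nutrient reservoir activity covers proteins that a seed lays down as a nutrient store. All 30 genes held under it were tested, 27 were lower at LE, where 4.94% of all genes were, and 0 higher, and the median log2 fold change was -6.10, against 0.00 over all genes. They are only part of the study's genes for this term, which it listed as higher in *Oslec1* than in NIP at EE. That choice favours falls with age in *Oslec1*. Among the 475 annotated genes tested in *Oslec1*, all chosen in that way, 123 were lower and 29 higher. Summed over the list, the level was 1133, 161 and 578 CPM in *Oslec1* LE embryos, against 58062, 56216 and 54389.7 CPM in *Oslec1* EE embryos. The sum was 90.1-fold lower at LE, a size that depends on the unequal LE replicates. For Os02g0249900, a member of this list, counts and deposited FPKM differed, as described above. How reads shared by close copies were counted is not given in the sources used here. The sums and the order of members by abundance are uncertain to that extent. Leaving out 1 library at a time, the median log2 fold change of the list lay between -7.01 and -5.61. In NIP, the sums were 212, 136 and 81.4 CPM at LE and 7062, 8409 and 6609.9 CPM at EE, 51.3-fold lower at LE, and 24 of 25 members tested were lower. Most of the grain's storage protein genes are endosperm genes in cereals, and no endosperm marker independent of this list could be matched to an identifier. The part of endosperm RNA in these levels was not tested.

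Os01g0762500 was the most abundant member (chromosome 1, 32076744 to 32078652, plus strand). It had 188, 13.5 and 70.7 CPM in *Oslec1* LE embryos, against 13115, 12419 and 12486 CPM in *Oslec1* EE embryos, 140.0-fold lower at LE, with a log2 fold change of -7.14 ± 0.90 (SE, edgeR adjusted *p* = 0.000214). In NIP embryos the gene had 21.1, 13.4 and 9.13 CPM in NIP LE embryos, against 1595, 1962 and 1572 CPM in NIP EE embryos, and the difference between the stage changes was -0.24 (edgeR adjusted *p* = 0.856). Os10g0400200, Os02g0453600 and Os03g0427300 followed in abundance, with log2 fold changes of -7.20, -6.82 and -7.97. The low LE levels were unequal between the replicates in the same way across the list. Of the 27 members that were lower, 23 had their highest LE level in the first replicate and their lowest in the second, and the first exceeded the second by a median of 8.9-fold over the 25 members with counts there. At EE, the highest replicate exceeded the lowest by a median of only 1.18-fold. Leaving out any 1 of the 6 libraries gave 27 members lower each time. Without the first LE replicate the fitted falls were larger, with log2 fold changes of -8.24 for Os01g0762500, -8.26 for Os10g0400200, -7.61 for Os02g0453600 and -8.82 for Os03g0427300. The 3 other members were Os03g0693900, with 1.85, 1.46 and 44.2 CPM in *Oslec1* LE embryos, against 2.50, 4.82 and 1.12 CPM in *Oslec1* EE embryos and edgeR adjusted *p* = 0.112, Os09g0568500 with a log2 fold change of -1.25, and Os02g0532500 with -0.05. Os09g0568700, which is among the 27, moved against NIP. It had 17.1, 20.4 and 14.3 CPM in *Oslec1* LE embryos, against 99.8, 87.7 and 107 CPM in *Oslec1* EE embryos, but 2.75, 1.66 and 3.87 CPM in NIP LE embryos, against 0.137, 0.171 and 0.163 CPM in NIP EE embryos, and the stage changes differed by -6.60 ± 0.49 (SE, edgeR adjusted *p* = 1.19e-06).

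Proteins with the term IgE binding, the seed allergens, share 5 of their 7 genes with the nutrient reservoir list. All 7 were lower at LE, where 4.94% of all genes were, with a median log2 fold change of -5.17. The study's choice of these genes by their EE levels favours such falls too. Of the 475 annotated genes tested, 123 were lower. Their sum was 225, 23.0 and 98.4 CPM in *Oslec1* LE embryos, against 6351, 6146 and 5539.5 CPM in *Oslec1* EE embryos. In all 7 genes, the first LE replicate was the highest and the second the lowest. Os07g0214300, which is also annotated as a serine protease inhibitor, had 58.3, 5.14 and 24.4 CPM in *Oslec1* LE embryos, against 1106, 1156 and 898 CPM in *Oslec1* EE embryos. Its level in the first LE replicate was thus far above that in the second, and its log2 fold change was -5.17 ± 0.74 (SE, edgeR adjusted *p* = 0.000434). Os06g0133000, which also carries the term for hexosyl transferase activity, had 1.78, 0.307 and 1.14 CPM in *Oslec1* LE embryos, against 399, 364 and 294 CPM in *Oslec1* EE embryos and a log2 fold change of -8.32. Without the first LE replicate, the changes of these genes were -6.16 and -8.92.

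Serine protease inhibitors, which block the digestion of stored protein and deter insects, had a smaller fall of the summed level. Of 16 genes, 9 were lower at LE and 1 was higher, with a median log2 fold change of -4.12. Over all genes, 4.94% were lower and 6.2% higher. Among the 475 annotated genes tested in *Oslec1*, which the study chose by their EE levels, 123 were lower and 29 higher. The list's summed level was 1494, 1096 and 1239 CPM in *Oslec1* LE embryos, against 7589, 7493 and 6284 CPM in *Oslec1* EE embryos, 5.58-fold lower. Most of what remained at LE came from 1 gene. Os01g0124200 had 1230.0, 991 and 1074 CPM in *Oslec1* LE embryos, against 3059, 3277 and 2706 CPM in *Oslec1* EE embryos, a log2 fold change of -1.47 ± 0.13 (SE, edgeR adjusted *p* = 2.75e-05), which is below the limit of 4-fold. Os07g0215500, by contrast, had 24.5, 2.42 and 11.7 CPM in *Oslec1* LE embryos, against 1639, 1243 and 1243 CPM in *Oslec1* EE embryos, a log2 fold change of -6.74, or -7.61 without the first LE replicate. On chromosome 7, 5 neighbouring inhibitor genes from Os07g0213600 to Os07g0214600 (6239015 to 6276753) were all lower at LE in *Oslec1* and all 5 were lower in NIP.

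Chitinases, which cut the chitin of fungal cell walls, divided by their place in the genome. Of 26 genes, 5 were higher at LE and 11 lower, with a median log2 fold change of -0.66, where 6.2% of all genes were higher and 4.94% lower. The 10 members on chromosome 11 lie together between 28722579 and 28761600, from Os11g0700900 to Os11g0702200, and 9 of them were lower at LE. The tenth, Os11g0700900, fell by 1.65 on the log2 scale, below the limit of 4-fold. Elsewhere, Os03g0418000 and Os08g0518900 were lower, while Os03g0132900, Os04g0347200, Os04g0493600, Os05g0247800 and Os10g0542900 were higher. Close copies of a gene can share reads, and how the authors' counting treated such reads is not given in the sources used here, so the division of counts within this cluster is uncertain.

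The chromosome 11 cluster reached its highest levels in the mutant at EE. The study listed these genes as higher in *Oslec1* than in NIP at EE, so their standing above NIP at EE is not a finding here. That choice also favours a lower stage change in *Oslec1* than in NIP. Os11g0701400 had 14.04, 31.9 and 26.6 CPM in *Oslec1* LE embryos, against 207, 331 and 288 CPM in *Oslec1* EE embryos. All EE libraries were above all LE libraries, and the log2 fold change was -3.52 ± 0.30 (SE, edgeR adjusted *p* = 2.8e-05). In NIP, the gene had 0.540, 1.26 and 8.60 CPM in NIP LE embryos, against 0.206, 0 and 0 CPM in NIP EE embryos, a log2 fold change in the other direction of 5.35 ± 1.44 (SE, edgeR adjusted *p* = 0.0116), and the stage changes differed by -8.92 ± 1.45 (SE, edgeR adjusted *p* = 0.000558). The difference was -12.83 without the first NIP EE replicate, the only one there with a count, and -7.03 without the third NIP LE replicate. Os11g0702200 had 0.573, 0.690 and 0.190 CPM in *Oslec1* LE embryos, against 67.4, 114 and 89.3 CPM in *Oslec1* EE embryos, 186-fold lower at LE. No NIP EE library held a count of it, so that the fitted difference of -12.66 (edgeR adjusted *p* = 0.00103) depends on the small count added in the fit and is no bound. Os11g0702100 had 12.4, 16.8 and 17.4 CPM in *Oslec1* LE embryos, against 139.5, 203 and 202 CPM in *Oslec1* EE embryos, and in the wild type 1.89, 1.15 and 3.06 CPM in NIP LE embryos, against 0.0687, 0.512 and 0.163 CPM in NIP EE embryos. Here too the directions were opposite, with log2 fold changes of -3.56 in *Oslec1* and 3.04 in NIP (difference adjusted *p* = 5.59e-06, edgeR). Os11g0701100 and Os11g0701800 were also lower at LE in NIP, with log2 fold changes of -6.00 and -2.15. Over the whole chitinase list, the sum was 595, 502 and 588 CPM in *Oslec1* LE and 1391, 2119.5 and 2057 CPM in *Oslec1* EE embryos, against 83.6, 64.7 and 106 CPM in NIP LE and 30.4, 58.7 and 39.1 CPM in NIP EE embryos. In NIP, 7 of 13 members tested were higher at LE and 2 lower, where 7.08% and 6.11% of all genes were. The stage change was called lower in *Oslec1* than in NIP for 12 of 26 members, where 4.06% of all genes were.

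**Figure D3:**
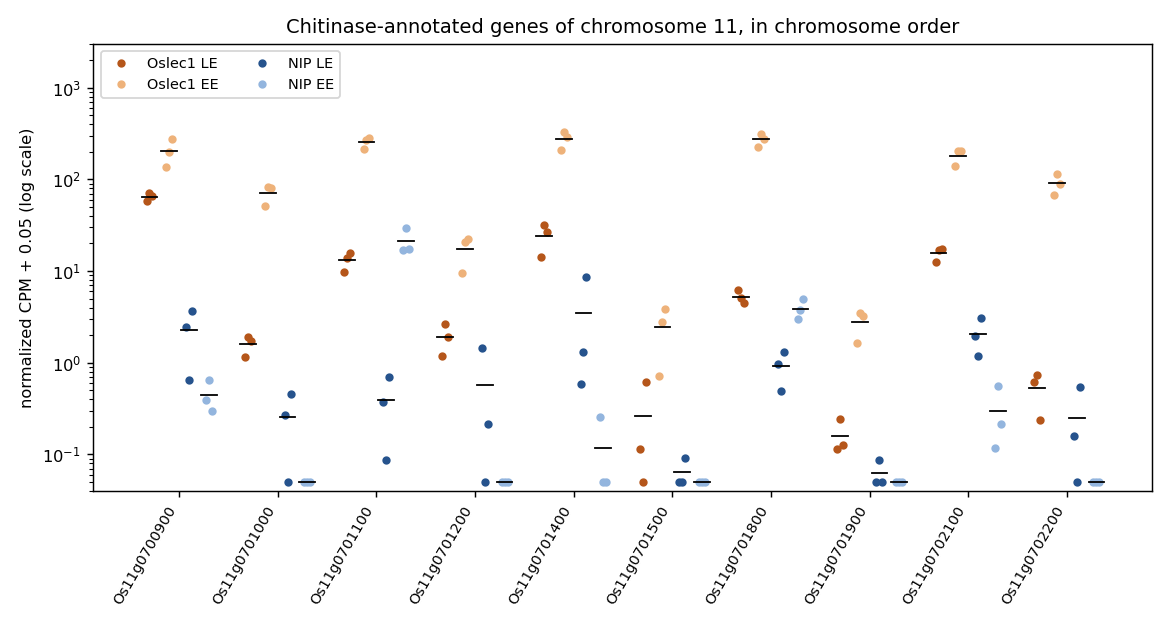
Normalized CPM (log scale, 0.05 added) of the 10 chitinase-annotated genes of chromosome 11 in the 4 groups, from left to right in chromosome order. Points are libraries and bars the mean of 3. In every gene the *Oslec1* EE libraries are the highest group, and the EE libraries of Os11g0702200 lie between 67.4 and 114 CPM. The genes were listed by the study as higher in *Oslec1* than in NIP at EE.

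Of 7 genes with the term chitin binding, 1 was higher and 1 lower, where 6.2% and 4.94% of all genes were, and so short a list says little about the term. Os06g0726200, the most abundant, had 89.2, 102 and 156 CPM in *Oslec1* LE embryos, against 25.6, 36.5 and 42.7 CPM in *Oslec1* EE embryos, a log2 fold change of 1.72 ± 0.24 (SE, edgeR adjusted *p* = 0.000419). In NIP it had 33.2, 24.6 and 29.3 CPM in NIP LE embryos, against 0.137, 0.939 and 0.0815 CPM in NIP EE embryos, a larger change of 6.26, with a difference of -4.56 ± 0.59 (SE, edgeR adjusted *p* = 0.000104), which was -6.23 without the second NIP EE replicate. The neighbouring Os06g0726100 had 3.79, 6.33 and 26.2 CPM in *Oslec1* LE embryos, against 4.42, 5.18 and 9.35 CPM in *Oslec1* EE embryos. Its groups overlapped, and the third LE replicate was more than 4 times as high as the others.

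Genes on the list for cell wall organization were lower at LE or not called in *Oslec1*, while in NIP more of them were higher than lower. The study listed them as higher in *Oslec1* than in NIP at EE, a choice that favours this contrast. It was also seen over all annotated genes. Of 475 tested in *Oslec1*, 29 were higher and 123 lower, and of 347 tested in NIP, 128 were higher and 66 lower. Of 30 genes with the term cell wall organization, 11 were lower at LE and 0 higher in *Oslec1*, with a median of -1.22, where 4.94% of all genes were lower and 6.2% higher. In NIP, 10 of 25 were higher and 2 lower, where 7.08% and 6.11% of all genes were. The sum lay in overlapping ranges at the stages of the mutant, with 1902, 2764 and 2545 CPM in *Oslec1* LE and 2606, 2390.3 and 2414 CPM in *Oslec1* EE embryos. In NIP it was 893, 939 and 1228 CPM at LE and 240.0, 254 and 255 CPM at EE. Os10g0450900, the most abundant member, had 467, 453 and 425 CPM in *Oslec1* LE embryos, against 329, 457 and 469.7 CPM in *Oslec1* EE embryos. Its groups overlapped (log2 fold change 0.09 ± 0.14 (SE, edgeR adjusted *p* = 0.597)), whereas NIP embryos had 165, 115 and 181 CPM in NIP LE embryos, against 16.1, 29.4 and 25.1 CPM in NIP EE embryos. Os08g0237000, a hexosyl transferase gene, rose in both genotypes, with log2 fold changes of 1.90 in *Oslec1*, under the limit of 4-fold, and 2.85 in NIP.

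Under the terms for breakdown, too, more genes were lower than higher at LE in *Oslec1*. Over all genes, 4.94% were lower and 6.2% higher. Among the 475 annotated genes tested in *Oslec1*, which the study chose by their EE levels, 123 were lower and 29 higher. The direction is therefore not a trait of breakdown genes alone. Of 30 genes of polysaccharide catabolism, 14 were lower and 2 higher at LE in *Oslec1*, with a median log2 fold change of -1.82. Of 20 genes of cell wall macromolecule catabolism, 18 of which are chitinases, 9 were lower and 2 higher, with a median of -1.28. Os02g0765600, the most abundant gene of polysaccharide catabolism, had 138, 195 and 205 CPM in *Oslec1* LE embryos, against 119, 195 and 140.0 CPM in *Oslec1* EE embryos. The *Oslec1* groups overlapped, and its log2 fold change was 0.24 ± 0.20 (SE, edgeR adjusted *p* = 0.336). In NIP the same gene was close to absent at EE, with 15.9, 9.98 and 8.39 CPM in NIP LE embryos, against 0, 0 and 0.0815 CPM in NIP EE embryos, and the difference of the stage changes was -8.24 ± 0.77 (SE, edgeR adjusted *p* = 8.21e-06), or -10.77 without the third NIP EE replicate, the only one with a count. Os01g0311800, which is annotated with enzyme inhibitor activity and cell wall organization, had 6.05, 9.86 and 5.48 CPM in *Oslec1* LE embryos, against 15.5, 32.8 and 42.1 CPM in *Oslec1* EE embryos, while the NIP libraries held 0.486, 1.03 and 8.93 CPM in NIP LE embryos, against 0, 0 and 0 CPM in NIP EE embryos. No NIP EE library had a count of this gene.

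Peroxidases of this kind use hydrogen peroxide to cross-link the wall and to detoxify. Of 30 genes, 9 were lower at LE in *Oslec1* and 1 was higher, with a median log2 fold change of -1.20, whereas 8 of 24 were higher and 0 lower in NIP. Over all genes, 4.94% were lower and 6.2% higher in *Oslec1*, and 7.08% were higher and 6.11% lower in NIP. Among the 475 annotated genes tested in *Oslec1*, 123 were lower and 29 higher. In NIP, 128 of 347 were higher and 66 lower. The study's choice of these genes by their EE levels favours both patterns. The sum was 1014, 1182 and 1069.9 CPM in *Oslec1* LE embryos, against 2371, 2076 and 2544 CPM in *Oslec1* EE embryos. Os07g0676900 had 39.0, 39.2 and 26.1 CPM in *Oslec1* LE embryos, against 356, 359 and 365 CPM in *Oslec1* EE embryos, a log2 fold change of -3.38 ± 0.16 (SE, edgeR adjusted *p* = 1.53e-06). Os05g0134400 had 41.0, 48.8 and 42.1 CPM in *Oslec1* LE embryos, against 276, 213 and 298 CPM in *Oslec1* EE embryos, and its NIP levels were 0.810, 1.26 and 0.734 CPM in NIP LE embryos, against 1.65, 0.256 and 0.408 CPM in NIP EE embryos. In the mutant it was lower at LE by 2.59 on the log2 scale, and the difference from NIP was -2.79 ± 0.53 (SE, edgeR adjusted *p* = 0.00155), or -4.08 without the first NIP EE replicate. Os06g0547400 had 154, 244 and 224 CPM in *Oslec1* LE embryos, against 239.7, 192 and 302 CPM in *Oslec1* EE embryos, with overlapping groups, while its log2 fold change in NIP was 5.56. Os03g0368300 had 0.0955, 0.0767 and 0.114 CPM in *Oslec1* LE embryos, against 8.97, 17.8 and 15.0 CPM in *Oslec1* EE embryos and was at least 129-fold lower at LE, set against 3 counts per library.

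No photosynthesis gene on the lists passed both limits between 25 and 7 DAP in the mutant, although many passed the adjusted *p* with a change under 4-fold. The GO term light harvesting in photosystem I, which covers chlorophyll-binding antenna proteins, held 14 genes, of which 0 were called higher and 0 lower with age in *Oslec1*, where 6.2% and 4.94% of all genes were called. At the adjusted *p* alone, 5 were higher and 5 lower, where 29.99% and 29.1% of all genes were, and the median log2 fold change was 0.08. Their sum was 846, 712 and 685 CPM in *Oslec1* LE and 655, 769.8 and 675 CPM in *Oslec1* EE embryos, with overlapping ranges. In NIP embryos the same genes summed to 19.6, 19.4 and 22.2 CPM at LE and 5.91, 5.63 and 6.85 CPM at EE, and 5 of 8 tested were higher at LE. The wider terms light reaction and photosynthesis, with 30 genes each and 15 genes in common, also had 0 members called in either direction, with medians of -0.14 and -0.30. At the adjusted *p* alone, 8 light reaction genes were higher and 10 lower, and 6 photosynthesis genes were higher and 15 lower. All 14 light-harvesting genes are within the light reaction list. By DESeq2, 0 members of the 3 lists were called, and limma on log2(FPKM + 0.1) called 1 photosynthesis gene lower. At an unadjusted edgeR *p* under 0.05, 9 light reaction genes were higher and 10 lower, and 7 photosynthesis genes were higher and 15 lower.

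The log2 fold changes of the most abundant light-harvesting genes lay between -0.26 and 0.66. Os09g0346500 had 195, 164 and 147 CPM in *Oslec1* LE embryos, against 115, 136 and 100.9 CPM in *Oslec1* EE embryos. The groups did not overlap, and the log2 fold change was 0.52 ± 0.14 (SE, edgeR adjusted *p* = 0.0103). In NIP it had 4.70, 3.44 and 2.40 CPM in NIP LE embryos, against 0.206, 0.256 and 0.0815 CPM in NIP EE embryos, a rise at a far lower level, and the stage changes differed by -3.69 ± 0.49 (SE, edgeR adjusted *p* = 0.000127). Os01g0600900 had 132, 118 and 109 CPM in *Oslec1* LE embryos, against 75.04, 75.7 and 75.9 CPM in *Oslec1* EE embryos, a log2 fold change of 0.66 ± 0.09 (SE, edgeR adjusted *p* = 0.000318), with NIP levels of 0.0540, 0.111 and 0.0408 CPM in NIP LE embryos, against 0.206, 0.598 and 0.326 CPM in NIP EE embryos. Os06g0320500 had 82.2, 64.5 and 68.1 CPM in *Oslec1* LE embryos, against 72.7, 95.3 and 87.5 CPM in *Oslec1* EE embryos and a log2 fold change of -0.26, with overlapping groups. Os01g0501800, the most abundant gene of the light reaction list, had 211, 169.7 and 184 CPM in *Oslec1* LE embryos, against 142, 157 and 169.7 CPM in *Oslec1* EE embryos and a change of 0.26 ± 0.11 (SE, edgeR adjusted *p* = 0.0691) on the log2 scale. These lists were selected by the study because the genes were higher in *Oslec1* than in NIP at EE, so the height of the EE level in *Oslec1* is not a finding here.

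**Figure D4:**
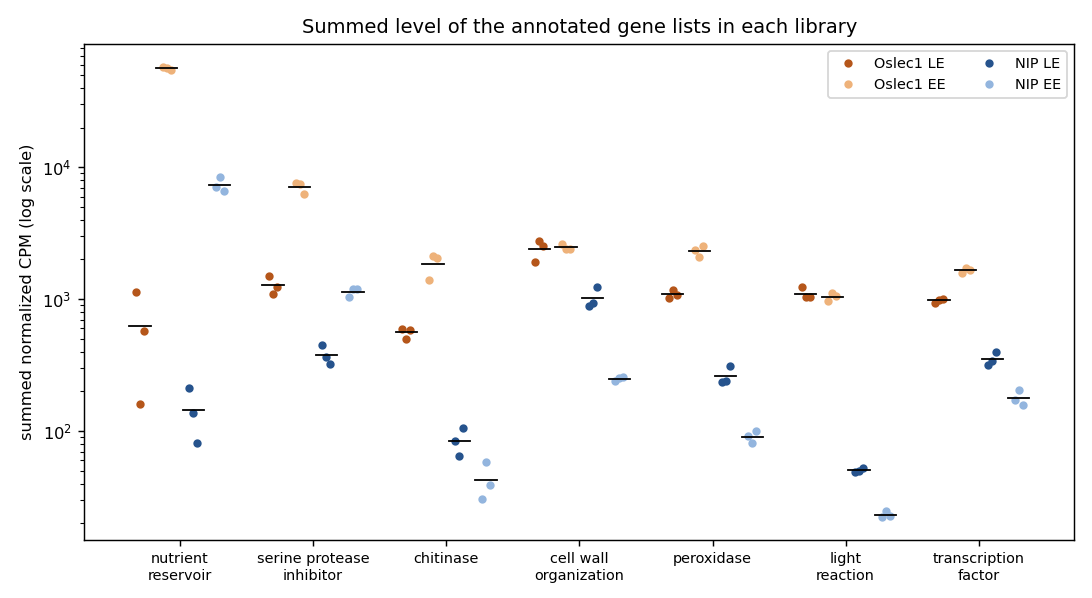
Summed normalized CPM (log scale) of 7 GO lists in each of the 12 libraries, with a bar at the mean of 3. The nutrient reservoir sum lies between 161 and 1133 CPM in *Oslec1* LE embryos, below all *Oslec1* EE libraries, while the light reaction sums of both *Oslec1* groups lie far above both NIP groups. The genes were listed by the study as higher in *Oslec1* than in NIP at EE.

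Amino acid transporters and peptide:proton symporters showed no common direction in *Oslec1*. Of 19 amino acid transporters, 2 were higher and 3 lower at LE, with a median of 0.03. Of 20 peptide:proton symporters, 1 was higher and 3 lower, with a median of -0.01. Over all genes, 6.2% were higher and 4.94% lower. In NIP, 9 of 14 amino acid transporters and 7 of 11 symporters tested were higher at LE and 0 lower. Over all genes tested in NIP, 7.08% were higher and 6.11% lower. The study's choice of genes higher in *Oslec1* than in NIP at EE favours such rises in NIP. Os02g0788800, the most abundant amino acid transporter, had 176, 203 and 181 CPM in *Oslec1* LE embryos, against 428, 318 and 339.7 CPM in *Oslec1* EE embryos. It was lower in every LE library than in every EE library (log2 fold change -0.96 ± 0.13 (SE, edgeR adjusted *p* = 0.000279)). In NIP embryos it had 203, 244 and 260.2 CPM in NIP LE embryos, against 27.3, 27.1 and 19.6 CPM in NIP EE embryos, and the stage changes differed by -4.21 ± 0.22 (SE, edgeR adjusted *p* = 1.07e-07). Os11g0283500, a peptide:proton symporter, rose in both genotypes, with log2 fold changes of 1.67 in *Oslec1*, under the limit of 4-fold, and 3.73 in NIP.

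Transcription factors on the list were lower at LE or not called. Of 30 genes with DNA-binding transcription factor activity, 9 were lower and 0 higher at LE in *Oslec1*, with a median of -1.34, and 8 of 26 were lower and 4 higher in NIP. Over all genes, 4.94% were lower and 6.2% higher in *Oslec1*, and 6.11% were lower and 7.08% higher in NIP. Among the 475 annotated genes tested in *Oslec1*, which were chosen by their EE levels, 123 were lower and 29 higher. The count for this list is therefore not a trait of transcription factors alone. The 30 genes are only part of the study's list for this term. Os05g0121600 had 191, 154 and 172 CPM in *Oslec1* LE embryos, against 447, 534 and 515 CPM in *Oslec1* EE embryos, a log2 fold change of -1.54 ± 0.11 (SE, edgeR adjusted *p* = 1.17e-05). In NIP it moved the other way, with 127, 116 and 100.9 CPM in NIP LE embryos, against 23.7, 42.2 and 22.2 CPM in NIP EE embryos and a difference of -3.50 ± 0.29 (SE, edgeR adjusted *p* = 2.84e-06). Os09g0528200 had 183, 235 and 245 CPM in *Oslec1* LE embryos, against 80.7, 82.2 and 72.5 CPM in *Oslec1* EE embryos, a log2 fold change of 1.48, and NIP embryos had 71.3, 102 and 137 CPM in NIP LE embryos, against 2.20, 1.20 and 2.69 CPM in NIP EE embryos. Os03g0183000 had 53.3, 51.05 and 43.8 CPM in *Oslec1* LE embryos, against 69.2, 69.4 and 78.5 CPM in *Oslec1* EE embryos, a small fall of -0.56 ± 0.10 (SE, edgeR adjusted *p* = 0.00142), whereas in NIP it had 0.918, 0.887 and 1.10 CPM in NIP LE embryos, against 15.5, 13.6 and 14.5 CPM in NIP EE embryos. The stage changes of this gene differed by 3.35 ± 0.17 (SE, edgeR adjusted *p* = 1.01e-07).

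The next 3 lists are set against 6.2% higher and 4.94% lower over all genes tested in *Oslec1*. Of 30 defense response genes, 1 was higher and 7 lower at LE in *Oslec1*, with a median of -0.36. The most abundant of them, Os04g0350100, had 216, 232 and 236 CPM in *Oslec1* LE embryos, against 412, 432 and 439 CPM in *Oslec1* EE embryos (log2 fold change -0.92 ± 0.08 (SE, edgeR adjusted *p* = 3.43e-05)). Monooxygenases, which include the cytochromes P450 of hormone and defense metabolism, had 3 members higher and 4 lower of 30, with a median of -0.11. Os11g0289700 had 138, 118 and 119.9 CPM in *Oslec1* LE embryos, against 19.7, 15.7 and 30.2 CPM in *Oslec1* EE embryos, a log2 fold change of 2.50 ± 0.22 (SE, edgeR adjusted *p* = 2.94e-05), and differed from NIP by 1.88. Os10g0171500 had 31.7, 24.2 and 21.8 CPM in *Oslec1* LE embryos, against 89.6, 112 and 100.5 CPM in *Oslec1* EE embryos, a fall of -1.96 ± 0.15 (SE, edgeR adjusted *p* = 1.37e-05) against a rise of 1.65 in NIP. Hexosyl transferases, which build the wall polysaccharides and sugar conjugates, had 0 members higher and 6 lower of 30, with a median of -0.23. In the 5 lists with 0 members higher and some lower, DESeq2 and limma on log2(FPKM + 0.1) also called 0 members higher, while an unadjusted edgeR *p* under 0.05 with a rise was found in 0 nutrient reservoir, 0 IgE binding, 4 cell wall organization, 6 transcription factor and 9 hexosyl transferase genes. Over all 475 genes with a GO term that were tested in *Oslec1*, 29 were higher and 123 lower at LE, with a median of -0.52. Of all genes tested, 6.2% were higher and 4.94% lower. In NIP, where 347 of the genes with a GO term were tested, 128 were higher and 66 lower, with a median of 1.13. Of all genes tested in NIP, 7.08% were higher and 6.11% lower. As the terms were assigned to genes that were higher in *Oslec1* than in NIP at EE, both medians share EE libraries with that choice.

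**Figure D5:**
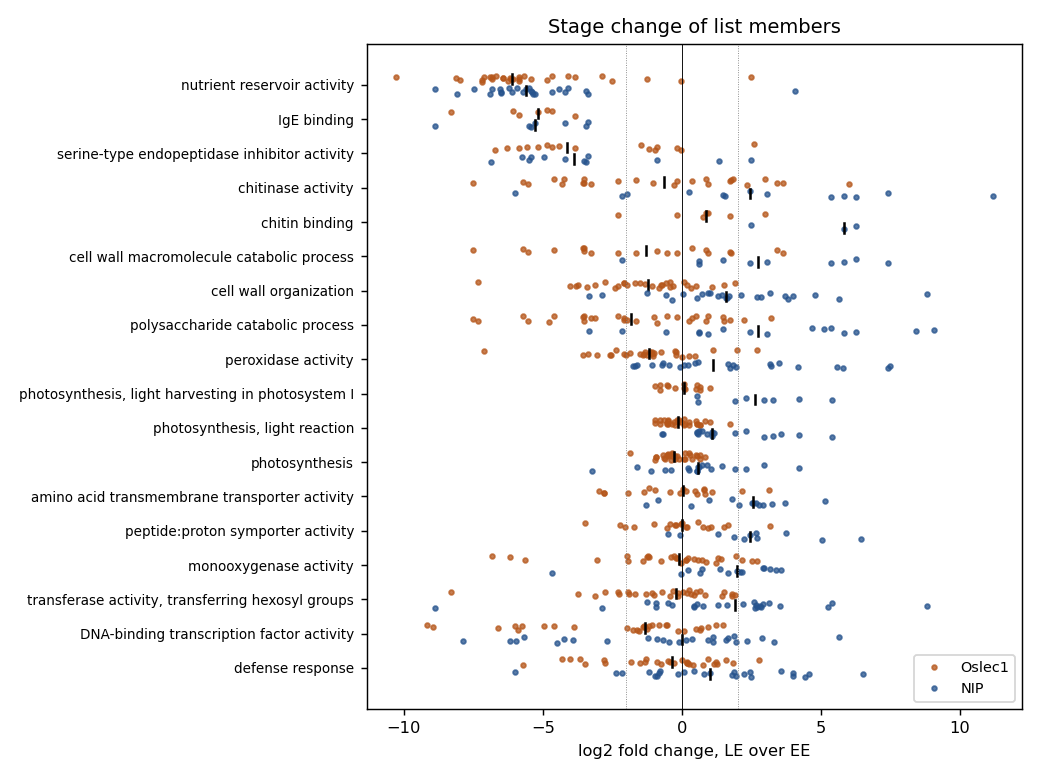
Log2 fold change of LE over EE of each member of the 18 GO lists in *Oslec1* embryos and in NIP embryos, with a black bar at the median and dotted lines at -2 and 2. The median of the nutrient reservoir list lies at -6.10 in *Oslec1* and -5.63 in NIP, while that of the light-harvesting list lies at 0.08 in *Oslec1* and 2.64 in NIP.

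A few genes changed by over 4-fold in opposite directions in the genotypes. There were 28 such genes, 13 higher at LE in *Oslec1* and lower in NIP, and 15 the reverse. None of the 13 carries a GO term, and 7 of the 15 do, a split that the choice of the annotated genes by their EE levels favours. Of the 7, 3 carry a term for cell wall organization, 2 for chitinase activity, 1 for glycosyl hydrolysis and 1 for nutrient reservoir activity. Os01g0823100, with the cell wall term, had 3.09, 1.88 and 1.60 CPM in *Oslec1* LE embryos, against 46.2, 21.0 and 40.3 CPM in *Oslec1* EE embryos, while NIP embryos had 4.54, 4.47 and 2.28 CPM in NIP LE embryos, against 0.137, 0.171 and 0.0815 CPM in NIP EE embryos. The stage changes differed by -8.81 ± 0.69 (SE, edgeR adjusted *p* = 1.91e-06). Os06g0718100, under the same term, had 10.2, 4.87 and 4.68 CPM in *Oslec1* LE embryos, against 139, 71.2 and 66.9 CPM in *Oslec1* EE embryos, and 95.3, 97.2 and 68.8 CPM in NIP LE embryos, against 8.52, 11.7 and 8.64 CPM in NIP EE embryos, a difference of -6.98 ± 0.49 (SE, edgeR adjusted *p* = 8.31e-07). In both genes, the 3 LE and the 3 EE libraries of each genotype did not overlap. A further 159 genes were higher at LE in *Oslec1* without passing the test in NIP, and the difference itself had an edgeR adjusted *p* under 0.05 in 128 of them. Of 85 genes lower in *Oslec1* only, 63 passed that test.

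Among the annotated genes, the stage change exceeded that of NIP by most in Os11g0167800, Os01g0895200 and Os03g0183000. Os11g0167800, annotated with the response to oxidative stress, had 17.2, 15.3 and 16.7 CPM in *Oslec1* LE embryos, against 5.38, 4.87 and 8.63 CPM in *Oslec1* EE embryos, while NIP embryos had 0, 0 and 0 CPM in NIP LE embryos, against 0.618, 0.171 and 0 CPM in NIP EE embryos. Its difference rests on the level of 0 at NIP LE and is no bound. Without the first NIP EE replicate it did not pass the test (edgeR adjusted *p* = 0.0671). Os01g0895200, annotated with oxidation and reduction, had 8.25, 10.7 and 11.3 CPM in *Oslec1* LE embryos, against 90.2, 119 and 129.6 CPM in *Oslec1* EE embryos, and no NIP LE library held a count of it, against 8.17, 4.78 and 4.89 CPM in NIP EE embryos. Its difference of 6.53 on the log2 scale (edgeR adjusted *p* = 0.00096) rests on this level of 0 and is no bound, and limma on log2(FPKM + 1) gave a difference of -1.65.

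Some of the genes that changed lay side by side. Counting 3 or more neighbours, among the 24487 tested genes put in chromosome order, that were called in the same direction, there were 59 runs, 30 higher and 29 lower at LE, with 103 and 104 genes. These are 207 of the 2728 genes called, where 6.2% of all genes were higher and 4.94% lower. How many such runs a random gene order would give was not tested. The longest run is that of chromosome 11 from Os11g0701000 to Os11g0701600 (28727508 to 28748484), with 6 genes lower at LE, 5 of them chitinases, and another run of 4 chitinases follows at 28753859 to 28761600. On chromosome 2, a run of 4 genes from Os02g0248800 to Os02g0249600 (8401328 to 8448546) was lower and holds 3 nutrient reservoir genes. A run of 4 genes from Os11g0591800 to Os11g0592200 was higher, and 2 of these are annotated with defense response to other organisms. Neighbouring copies can share reads, which was not resolved here.

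MicroRNA precursors are the regulators that the files pair with a name. A microRNA directs the cutting of matching messenger RNAs. Its primary transcript, which holds the precursor, is polyadenylated and can be caught by such libraries. Of 97 precursors named, 33 had a count and 12 were tested, of which 1 was higher and 2 lower at LE in *Oslec1*. Over all genes, 6.2% were higher and 4.94% lower, and so few precursors say little about microRNAs as a class. MIR164 (ENSRNA049475964, chromosome 3, 10542157 to 10542288, plus strand), whose product targets *NAC* transcription factors, had 1.66, 2.46 and 1.98 CPM in *Oslec1* LE embryos, against 0.459, 0.152 and 0.719 CPM in *Oslec1* EE embryos. The LE libraries were all above the EE libraries, at levels of only a few CPM, and the log2 fold change was 2.14 ± 0.43 (SE, edgeR adjusted *p* = 0.00288). It was under the limit of 4-fold without the second EE replicate (1.77) or the second LE replicate (1.99). In NIP embryos it had 6.27, 9.58 and 8.07 CPM in NIP LE embryos, against 0.275, 0.171 and 0 CPM in NIP EE embryos, and the stage changes differed by -3.49 ± 0.78 (SE, edgeR adjusted *p* = 0.00447), or by -4.35 without the first NIP EE replicate. MIR529 (ENSRNA049469250), which targets *SPL* genes, had 0.637, 0.422 and 0.114 CPM in *Oslec1* LE embryos, against 4.84, 3.20 and 5.39 CPM in *Oslec1* EE embryos, a log2 fold change of -3.48 ± 0.44 (SE, edgeR adjusted *p* = 0.000228). MIR171_1 (ENSRNA049467907), which targets scarecrow-like genes, had 0.605, 0.729 and 0.913 CPM in *Oslec1* LE embryos, against 5.51, 1.73 and 3.24 CPM in *Oslec1* EE embryos, a change of -2.24 ± 0.43 (SE, edgeR adjusted *p* = 0.00225), and differed from NIP by -2.68 ± 0.67 (SE, edgeR adjusted *p* = 0.00834). Without the first EE replicate its change was -1.75, under the limit. A second precursor of the same name (ENSRNA049474010) had 1.94, 1.57 and 1.37 CPM in *Oslec1* LE embryos, against 3.67, 0.914 and 1.75 CPM in *Oslec1* EE embryos, with overlapping groups and a log2 fold change of -0.40 (edgeR adjusted *p* = 0.466). Mature microRNAs are not measured by these libraries. Among all 64 named non-coding RNAs tested, 1 was higher and 4 lower, where 6.2% and 4.94% of all genes were. The lower ones include the small nucleolar RNAs snoZ188 and snoZ266, with log2 fold changes of -2.02 and -2.04. Both were under the limit without 1 of several libraries, at -1.58 for snoZ188 without the second LE replicate and at -1.62 for snoZ266 without the first EE replicate.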

How the data were processed

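Polyadenylated RNA of *Oslec1* and NIP embryos at LE and EE was measured in 12 libraries, 3 per group, and groups were taken from the sample records. Per the submitters' processing notes and the paper, the authors trimmed reads with Trimmomatic 0.36, mapped them to IRGSP-1.0 with HISAT2 2.1.0 and assembled transcripts with StringTie 1.3.4d. The authors deposited whole-number counts per gene without normalization, FPKM and TPM values and the mean coverage per gene. The counting program is not given in the sources used here. TPM and coverage were not used here, and 0 of the 38978 entries named no gene.

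The stages were compared on counts by the quasi-likelihood test of edgeR 4.0.16 in R 4.3.3 (filterByExpr, TMM, Benjamini-Hochberg adjustment), on the 6 libraries of a genotype, and the difference of the stage changes on all 12. Calls needed an adjusted *p* under 0.05 and a log2 fold change of 2 or more in size. A count of 0 allows up to 3 counts per library, and such limits cover counting error only. CPM were scaled with TMM factors over 12 libraries. Alternatives were DESeq2 1.42.0, limma 3.58.1 after adding 0.1 or 1 to FPKM on the log2 scale (genes with FPKM of at least 0.5 in 3 libraries), other filters, scalings, limits and fits, the replicate number as a block, and each replicate left out. Simulated data with 200 changed genes at a log2 fold change of 3 were tested. Of these, 199 were called among 24204 genes for *Oslec1* and 199 among 21748 for NIP, each with 0 unchanged genes called, and 184 of 199 among 23305 for the difference, with 1 unchanged gene called. Python 3.11.15 (pandas 2.3.3, scipy 1.17.1, numpy 2.4.6, matplotlib 3.10.9) gave tables and figures.

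The comparison, the members and the lists were chosen with earlier results of these data known. The gene lists planned by symbol or description matched 0 nuclear genes, since the reference names belong to another assembly with other identifiers. In their place, 18 GO lists from a supplementary table of the study were used, with 481 genes in all and at most 30 per term, chosen after the files were seen. A GO term stood for the description in the rule for named genes. That rule took the 5 genes per direction with the largest change and a mean of at least 100 normalized counts (of 27 higher and 111 lower candidates), up to 4 members per list with the highest mean level, the 3 per direction with the largest difference, and the 5 most abundant genes per stage. Genes named for other reasons were chosen after their values were seen. Promoter motifs and *OsLEC1* itself were not analysed here.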

Additional observations from a re-analysis of the deposited data

Results flagged for a closer look

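The stage change differed between *Oslec1* and NIP by the test of the difference itself (edgeR, all 12 libraries) in 973 genes with a higher and 1011 genes with a lower log2 fold change in *Oslec1*. The annotated genes with the largest such differences were named above, and their values follow. Os11g0167800, annotated with the response to oxidative stress, differed by 7.01 ± 1.59 (SE, edgeR adjusted *p* = 0.00656). Its *Oslec1* LE libraries had 17.2, 15.3 and 16.7 CPM and its *Oslec1* EE libraries 5.38, 4.87 and 8.63 CPM, and without the first NIP EE replicate the difference was 5.36 with an edgeR adjusted *p* of 0.0671. Os01g0895200 differed by 6.53 ± 1.05 (SE, edgeR adjusted *p* = 0.00096). In both genes, no NIP LE library held a count, so these fitted values depend on the count added in the fit. Os03g0183000, a transcription factor gene, differed by 3.35 ± 0.17 (SE, edgeR adjusted *p* = 1.01e-07).

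In the other direction, the chitinase gene Os11g0702200 differed by -12.66 (edgeR adjusted *p* = 0.00103), Os01g0311800 by -11.34 (edgeR adjusted *p* = 0.006) and the peroxidase gene Os03g0368300 by -11.07 (edgeR adjusted *p* = 0.000283). In all 3, the NIP EE libraries held no count, so these fitted values depend on the count added in the fit. The 5 genes with the highest FPKM in NIP EE embryos, which took 22.47% to 25.82% of the counts there, each had a higher log2 fold change in *Oslec1* than in NIP, by 4.32 to 7.51. No group had more than 3 libraries, so single libraries were not tested as outlying values.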

How the results depend on the processing

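The counts of genes for *Oslec1* LE against EE were within 1.5 times the values given under DESeq2, other scalings, no filter, the fit on all 12 libraries and limma on log2(FPKM + 0.1). With at least 10 counts in every library, which leaves 21707 genes, 804 genes were higher and 664 lower. Testing against a change of 2 on the log2 scale (glmTreat) gave 768 and 608, limma on log2(FPKM + 1) gave 796 and 556, the adjusted *p* alone 7345 and 7130, and a limit of 1 on the log2 scale gave 3588 and 3227. Leaving out 1 replicate at a time gave 1456 to 1764 genes higher and 1248 to 1360 lower.

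For the difference of the stage change, at least 10 counts in every library left 18714 genes, with 526 higher and 228 lower. Library totals gave 560 and 1808, limma on log2(FPKM + 0.1) gave 1691 lower, and limma on log2(FPKM + 1) gave 324 and 577. Leaving out 1 replicate gave 881 to 1133 higher and 910 to 1052 lower. The share of the genes higher in NIP that were higher in *Oslec1* became 33.33% with library totals and 35.13% with limma on log2(FPKM + 0.1), and lay at 40.31% to 43.71% without 1 replicate. The share for the genes lower in NIP became 32.78% with at least 10 counts, 54.33% with library totals, 52.54% and 48.14% with limma on log2(FPKM + 0.1) and log2(FPKM + 1), and 39.05% to 42.07% without 1 replicate. The cause was not tested where the scaling or the unit moved a value.

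Under limma on log2(FPKM + 1), the difference of Os01g0895200 turned to -1.65 and that of Os11g0701100 to -0.83, against 1.69 with edgeR. The small fall of Os03g0183000 in *Oslec1* became -0.02 in both limma fits (adjusted *p* = 0.88), and snoZ266 lost its call there (limma adjusted *p* = 0.0938 and 0.0797). For named genes in *Oslec1*, 1547 of the results under alternatives kept their direction and side of the adjusted *p* threshold, 32 lost it, 20 gained it and 0 reversed. Where leaving out 1 library took a change under 4-fold, this is said beside the gene, and Os01g0311800 (-2.09) had -1.77 without the third EE replicate.

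Same-numbered LE and EE replicates did not deviate together (r of 0.12, 0.03 and 0.03 in *Oslec1*), so the numbers were not taken as pairs. Between the genotypes, the first LE replicates (r = 0.51) and the third (r = 0.31) did, and the second (r = -0.03) did not. With the replicate block, 1532 genes were higher and 1215 lower, the difference gave 973 and 999, and the shares were 42.55% and 41.01%. Depth limits genes near 3 counts per library, for which folds are bounds.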

Other observations

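The third *Oslec1* LE replicate held a set of genes that stood above the other replicates together. Of the 13 genes called higher at LE for which this library was more than 4 times as high as both others, 4 lie on chromosome 2 between 21690378 and 21847545. Their levels in the third LE replicate were 12.1, 12.3, 32.8 and 34.0 CPM in chromosome order, against 2.07, 2.07, 4.87 and 4.33 CPM in the second and 1.21, 0.414, 2.61 and 1.43 CPM in the first, while no *Oslec1* EE library exceeded 0.450 CPM. None carries a GO term. They were too low to be tested in NIP.

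On chromosome 9, a run of 5 neighbouring genes between 10520072 and 10741908 was higher at LE in *Oslec1*, with a median log2 fold change of 3.68, and 0 of the 5 were tested in NIP. On chromosome 8, a run of 4 genes between 2054222 and 2067718 was lower at LE in *Oslec1*, with a median log2 fold change of -5.32, and 0 of the 4 were tested in NIP, while the difference of the stage change was called for 3 of them. Whether such runs hold copies that share reads was not tested.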
